A study of Mus musculus with 151 samples.

Results

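Cohesin is the ring-shaped protein complex that holds sister chromatids together, and 10 genes of it were followed here out of 35976 gene names in each of the 7 count tables. The list was set by gene name, with earlier results of these data known. Meiosis-specific subunits are encoded by Rec8 and Rad21l (kleisins, which close the ring), Smc1b (an SMC arm) and Stag3 (which binds the kleisin), 4 of the 10 genes. The other subunits are encoded by Smc3 (an arm of both kinds of ring), Smc1a, Rad21, Stag1 and Stag2, and Esco2 encodes the acetyltransferase that acts on SMC3 when cohesion is set up during DNA replication.

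When a germ cell enters meiosis, SMC1B, REC8, RAD21L and STAG3 take over from their mitotic counterparts, and rings carrying REC8 tie sister chromatids together through meiotic prophase. In females these rings are loaded before birth, when oocytes pass through prophase and then arrest, and they have to last until the oocyte is ovulated. Loss of this cohesion with age is a known source of chromosome segregation errors in oocytes.

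RNA was sequenced from female F1 mice of CF-1 mothers and B6/SJL fathers, which were conceived either naturally (Natural) or by in vitro fertilization (IVF). IVF eggs came from hormonally superovulated mothers, while Natural mothers were mated in their natural estrous cycle. IVF embryos were cultured to the blastocyst stage and transferred to pseudopregnant recipients. The IVF group thus combines superovulation of the mother, fertilization in vitro, culture and transfer. Germ cells were covered by 4 Natural and 5 IVF libraries of E13.5 primordial germ cells (PGCs), 36 Natural and 40 IVF single oocytes of 12-week-old females, and 9 Natural and 10 IVF single oocytes of 39-week-old females. Ovaries were covered by 4 Natural and 6 IVF libraries for the E18.5 stage, 4 Natural and 5 IVF libraries for age 12 weeks, and 5 libraries of each conception for age 39 weeks. Cumulus cells, the somatic cells around the oocyte, gave 5 libraries of each conception, from 12-week-old females. Adult oocytes and cumulus cells of both groups came from F1 females that were themselves hormonally superovulated. The labels number the ovary, PGC and cumulus libraries but do not say that each came from a separate animal or litter, so p-values measure the spread between these libraries. For ovaries the methods name several individuals per group and different litters, but the labels do not tie libraries to them. One passage of the methods has IVF fetuses delivered on a later day than Natural ones, while the labels give E18.5 for both, so conception and a possible difference in fetal age cannot be told apart.

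Total counts were 6995713 to 14830788 per E18.5 ovary, 2839022 to 43363799 per 12-week ovary and 18079970 to 38751638 per 39-week ovary. They were 4364495 to 8675189 per PGC library, 839781 to 10879166 per 12-week oocyte, 2820748 to 31126357 per 39-week oocyte and 2532824 to 6345249 per cumulus library. Counts of 12-week oocytes were summed over the 10 sets that share the first 2 fields of the library name (5 Natural and 5 IVF, 19624072 to 58259515 counts), and these sets were the samples tested. No set prefix occurs in both groups, so set and conception cannot be told apart. The 39-week oocytes are not tied to animals by any label, and each group of them was treated as 1 sample without a test. The germ cell marker Dazl reached 1172 to 3434 CPM in the PGC libraries, whose summed granulosa markers were at most 14.9 CPM, but 12 single oocytes held far less Gdf9, an oocyte-secreted growth factor, than the rest. Levels are given as CPM (counts scaled to a common library total), fold changes come from edgeR after TMM scaling with positive values meaning higher in IVF unless stated otherwise, and a gene was called at a Benjamini-Hochberg adjusted p below 0.05 over all genes tested.

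The GENCODE gene models, 1 locus a gene, place Rec8 at chr14:55618037-55625395 (plus strand), Rad21l at chr2:151645404-151668533 (minus), Smc1b at chr15:85064689-85131964 (minus) and Stag3 at chr5:138280240-138312393 (plus) in mm10. The shared and mitotic subunits lie at chr19:53600398-53645833 (Smc3, plus), chrX:152016428-152062694 (Smc1a, plus), chr15:51962240-51991747 (Rad21, minus), chr9:100597798-100959375 (Stag1, plus) and chrX:42149317-42277185 (Stag2, plus), and Esco2 at chr14:65819038-65833994 (minus). Counts were given per gene name, so isoforms were not separated. Smc1b, Smc1a, Stag1 and Stag2 overlap annotated pseudogenes or unverified transcripts, which may share reads with them, while no overlap was annotated for the other 6 genes. In transcript length Rad21l is the shortest, at 1659 bases in its longest transcript, and Stag1 the longest, at 6186 bases, so levels were compared between genes only per kilobase.

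RefSeq start sites were matched for 7 of the 10 genes, leaving out Rad21, Stag2 and Esco2. Promoters from 250 bases before to 50 bases after the start were searched on both strands for TTCCCGC, a form of the E2F binding site, a family whose member E2F6 is known as a repressor of germ cell genes in somatic cells, and for the E-box CACGTG. The first was found in 4 genes, always on the strand of the gene, and is present in 4.6% of all 32851 promoters of this length. The E-box, present in 7.15% of all promoters, was not found in these windows of the 7 genes. The stretches are shown because Stag3 and Smc1b, whose levels differed widely between sample types, share these letters with Stag1 and Smc1a, which were expressed in every library. Capitals mark the motif, and coordinates are those of GRCm38.p6.
Stag3 (chr5:138280495-138280523, plus strand): tatcccgtgccTTCCCGCgtttttttcta
Smc1b (chr15:85131988-85132016, minus strand): aaaagaatttcTTCCCGCgcttttttttt
Stag1 (chr9:100643421-100643449, plus strand): aaaggccacgtTTCCCGCgccgctgctgc
Smc1a (chrX:152016455-152016477, plus strand): cactgcgctatTTCCCGCgcggg
The Smc1b stretch lies upstream of the annotated gene, and those of Stag3, Stag1 and Smc1a lie inside their genes and overlap an exon in the untranslated part of a transcript. A match is a description of the letters, and binding was not measured.

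Across all samples Rec8, Smc1b and Stag3 had their highest levels in PGCs. In the 9 PGC libraries Smc1b ranged from 127 to 992 CPM (median 366), Stag3 from 179 to 607 CPM (median 382) and Rec8 from 10.3 to 415 CPM (median 90.8). In 12-week oocyte sets the same genes reached at most 18.3, 3.02 and 0.0666 CPM, below the lowest PGC library in each case. Rad21l, a kleisin of early prophase, followed another course, since among ovaries, PGC libraries and oocyte sets it was highest in E18.5 ovaries (1.47 to 9.88 CPM) apart from 1 PGC library at 54.7 CPM.

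**Figure D1:**
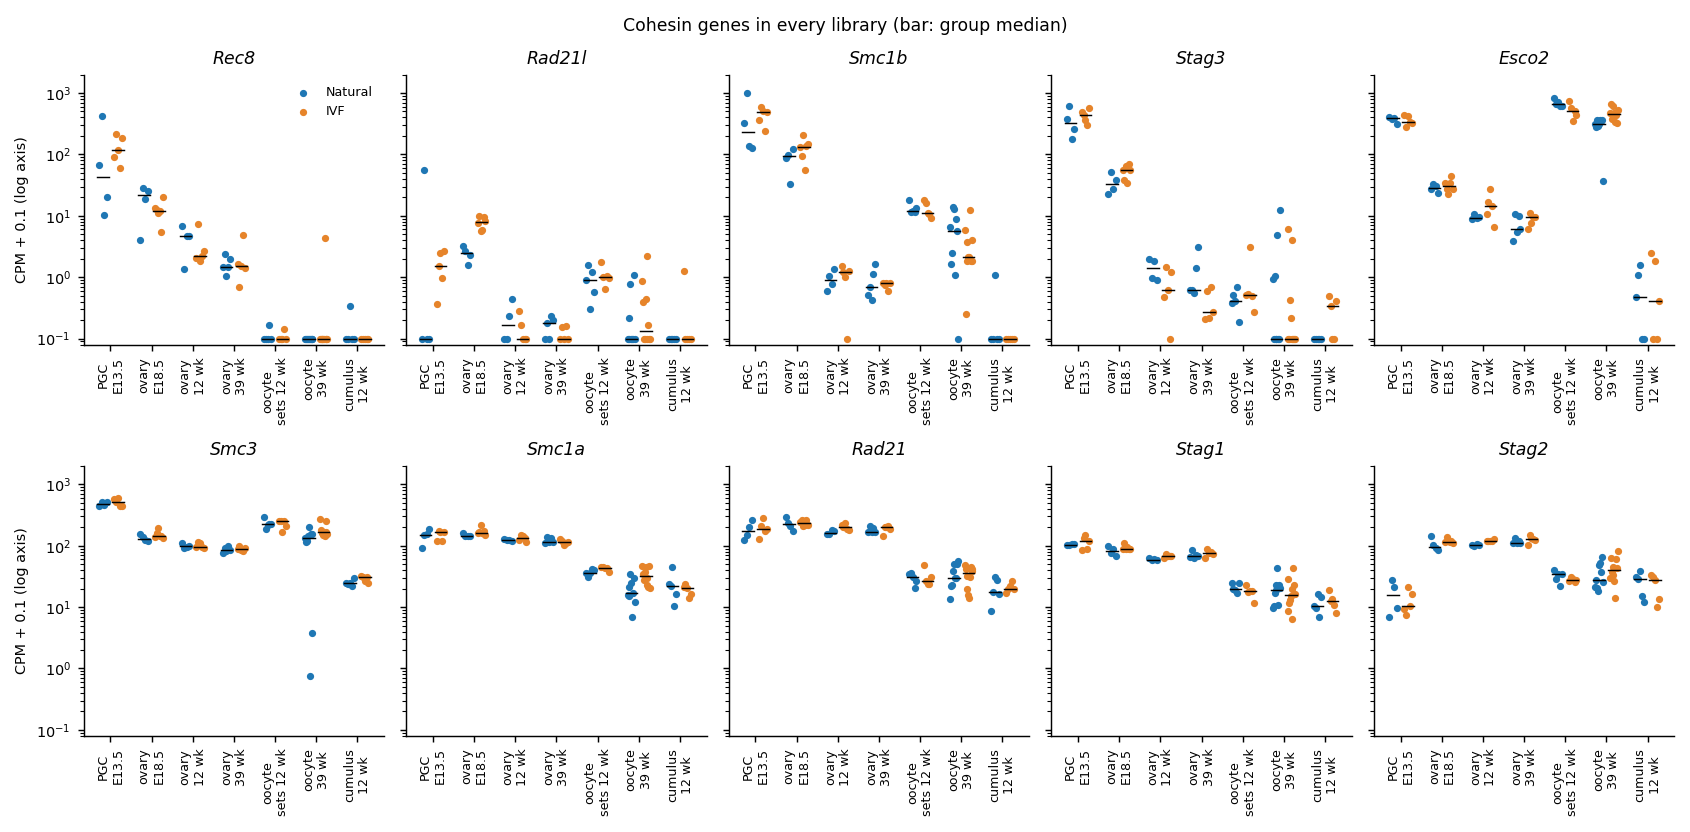
Levels of the 10 cohesin genes in every library (points, CPM + 0.1 on a log axis) by sample type, with Natural in blue, IVF in orange and the group median as a bar. Rec8, Smc1b and Stag3 are highest in E13.5 PGCs and near the floor in cumulus cells, whereas Smc3, Smc1a, Rad21 and Stag1 lie between 0.652 and 607 CPM in every library shown.

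To compare meiosis-specific genes with their mitotic counterparts within a library, levels were divided by transcript length, which makes the share independent of the scaling between libraries. Smc1b made up a median of 77.9% of Smc1a and Smc1b together in PGCs (44.4% to 88.6%) and 46.0% in E18.5 ovaries (20.8% to 52.7%). The share was 27.8% in 12-week oocyte sets (21.9% to 37.0%) and at most 2.43% in cumulus libraries. Ovary libraries also hold somatic cells, with summed stroma markers of 18623 to 29616 CPM at E18.5 against at most 20.2 CPM in PGCs. In ovary shares, cell mixture and the level in germ cells cannot be told apart. PGC libraries and oocyte sets did not overlap, and an arm gene specific to meiosis therefore kept a sizeable share in 12-week oocytes. In single 39-week oocytes the median share was 18.0% in Natural (0% to 38.0%) and 8.00% in IVF (0.484% to 38.8%). In single 12-week oocytes it was 28.3% in Natural (16.4% to 85.3%) and 26.0% in IVF (9.67% to 62.7%). These values include the oocytes of low Gdf9, and no test was made. Age and table cannot be told apart in them.

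Stag3 and the kleisins had lower shares in oocyte sets than Smc1b. Stag3 made up a median of 82.2% of the 3 Stag genes in PGCs (67.6% to 88.5%), 27.9% in E18.5 ovaries (12.2% to 32.7%) and 1.23% in 12-week oocyte sets (0.217% to 8.68%). Rec8 and Rad21l together made up 49.3% of the 3 kleisin genes in PGCs (8.35% to 85.7%), 14.8% in E18.5 ovaries (4.71% to 22.7%) and 6.78% in oocyte sets (1.56% to 12.0%). The kleisin share was the most variable of the 3 in PGCs, with its lowest library inside the range of the oocyte sets. In the adult ovaries all 3 shares stayed at or below 7.29%, with the same limit of cell mixture as at E18.5.

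**Figure D2:**
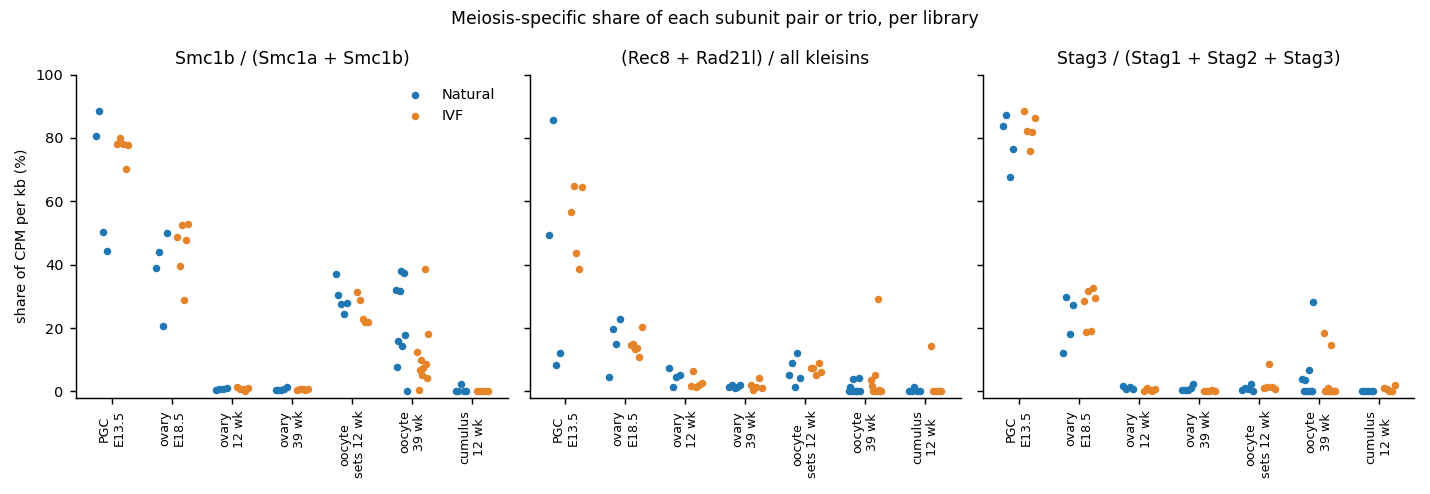
Share of the meiosis-specific gene or genes in each subunit class (%, of CPM per kilobase) in every library, with Natural in blue and IVF in orange. PGCs hold the highest shares in all 3 classes, and oocyte sets keep 21.9% to 37.0% of Smc1b while their Stag3 share does not exceed 8.68%. Ovary libraries mix germ and somatic cells.

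The next comparison asked how far cohesin genes differ between PGCs at E13.5 and oocytes at 12 weeks. In a joint fit of Natural libraries, 3 genes were higher and 5 lower in oocyte sets among 10 tested, where 76.1% of all 17368 genes were called, 38.9% higher and 37.2% lower. This background leaves little to read from the count of 8. Age, cell type and table cannot be told apart in it, and PGC libraries held 100 cells where oocytes were single cells. Scaling matters as well, because TMM factors ran from 0.462 to 2.494, and with library totals alone the median of all genes moved from -0.09 to -1.96 on the log2 scale and the members split into 2 higher and 8 lower, where 22.3% of all genes were higher and 58.1% lower.

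Among the meiosis-specific genes, Rec8 showed the largest difference. It passed the expression filter through the PGC libraries alone, so its direction was fixed in advance. It held 67.1, 415, 10.3 and 19.9 CPM in the 4 Natural PGC libraries and 0 in 4 of 5 Natural oocyte sets, the remaining set holding 3 counts. Summed over libraries, 162 CPM stood against 0.0143 CPM, a ratio of 11358.7 (counting interval 3886.7 to 55079.5). Most of this came from PGC library 2, without which 502 of the 3838 Natural PGC counts of Rec8 remained (32.1 CPM) and the ratio was 2248.2. In IVF samples 131 CPM stood against 0.0094 CPM, from 2 counts.

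Stag3 had nearly disappeared as well. Natural PGC libraries held 382, 607, 179 and 256 CPM against 0.0872 to 0.600 CPM in the oocyte sets, a log2 difference of -8.16 (SE 0.63, adjusted p = 2.19e-10 by edgeR's quasi-likelihood test). Smc1b was lower by less, at 326, 992, 137 and 127 CPM in PGCs against 11.5 to 18.3 CPM in oocyte sets, a log2 difference of -2.91 (SE 0.42, adjusted p = 2.18e-06). The groups did not overlap for either gene, though overlap was not counted over all genes. Both genes were also lower with library totals alone, by -10.04 and -4.90 on the log2 scale.

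Rad21l was not called in this comparison (log2 difference -1.84, SE 1.16, adjusted p = 0.152). The Natural PGC libraries were at 0, 54.7, 0 and 0 CPM against 0.204 to 1.49 CPM in the oocyte sets. Its direction therefore rested on PGC library 2, without which the log2 difference was 7.84 and called (adjusted p = 0.000117) against PGC libraries that were all at 0, so that its size depends on the prior count of the fit.

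Of the mitotic and shared genes, Stag2 and Esco2 were higher in oocyte sets under both scalings. Stag2 held 6.84, 27.5, 21.2 and 9.62 CPM in Natural PGC libraries and 22.2 to 39.9 CPM in oocyte sets (log2 difference 2.86, SE 0.34, adjusted p = 1.53e-07). Esco2 was at 314 to 406 CPM in PGCs and 617 to 832 CPM in oocyte sets (2.68, SE 0.30, adjusted p = 5.56e-08). With library totals alone the differences were 0.96 and 0.88, and the CPM of Stag2 overlapped.

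Smc3 depended on the scaling, being higher in oocyte sets after TMM (0.78, SE 0.23, adjusted p = 0.00485) but lower with library totals alone (-1.05, adjusted p = 1.03e-05). In CPM it was at 448 to 510 in Natural PGCs and 187 to 298 in Natural oocyte sets, without overlap. Rad21 and Stag1 were lower under both scalings (-0.83 and -0.51 after TMM, adjusted p = 0.0139 and 0.0450), though Stag1 lost its call without PGC library 1, 3 or 4 or oocyte set 35_3, 92_3 or 92_4 and Rad21 without PGC library 4 (-0.64, adjusted p = 0.0698). After TMM Smc1a was not called (-0.13, adjusted p = 0.530), but it was lower with library totals alone (-1.98).

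In IVF samples, 3 genes were again higher and 5 lower, with 76.1% of all genes called, 40.8% higher and 35.3% lower. The difference between IVF and Natural in this change was tested directly, and 0 of 10 members and 0 of 17368 genes (0%) were called by edgeR, with 1247 genes at an unadjusted p below 0.05 and 38 genes called by DESeq2. Of 18 other genes of the cohesin pathway (loading, release, protection and cleavage factors), 17 were tested, and 14 were higher and 2 lower in Natural oocyte sets after TMM, beside 38.9% and 37.2% of all genes. With library totals alone 4 were higher and 5 lower, beside 22.3% and 58.1% of all genes. Examples are Sgol2b, a shugoshin gene of the family that shields cohesin from cleavage (7.03), Pttg1, which encodes securin (6.41), and Esco1, the other acetyltransferase (4.10). Pds5a and Pds5b, whose products bind the ring and regulate its release, were lower (-2.31 and -1.24).

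PGCs at E13.5 were then compared between Natural and IVF, to see whether meiotic cohesin differed at this age. None of the 10 genes was called, and neither was any of the 12763 genes tested (0%), by edgeR or by DESeq2, with 349 at an unadjusted p below 0.05. Adjusted p-values were 1 for all members by edgeR's quasi-likelihood test.

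The Natural libraries were spread widely. Rec8 was at 67.1, 415, 10.3 and 19.9 CPM in Natural libraries 1 to 4, and at 90.8, 212, 118, 58.9 and 187 CPM in IVF libraries 1 to 5. Smc1b was at 326, 992, 137 and 127 CPM in the Natural libraries and at 366, 600, 507, 237 and 500 CPM in the IVF libraries. The IVF values of both genes lay inside the Natural range.

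Stra8, the retinoic acid-induced gene that marks the switch to meiosis, was at 23.6, 792, 0 and 2.29 CPM in the Natural libraries and at 87.8, 204, 112, 46.9 and 176 CPM in the IVF libraries. The order of the 9 libraries by Rec8 was the same as by Stra8 except that Natural 1 and IVF 4 changed places. Natural 2 was highest in Stra8, Rec8, Smc1b, Stag3 and Rad21l, and Natural 3 and 4 were lowest in Stra8, Rec8, Smc1b and Stag3. These 9 points share libraries and pools of 100 cells, and their order is given as a description only.

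Stag3 varied less, at 382, 607, 179 and 256 CPM in Natural and 493, 446, 367, 300 and 569 CPM in IVF PGCs. Rad21l was at 0, 54.7, 0 and 0 CPM in Natural and at 0.264, 1.45, 2.42, 0.856 and 2.60 CPM in IVF libraries (log2 fold change -2.92, SE 1.48). Every IVF library held some Rad21l, at 2 to 22 counts, while 3 of 4 Natural libraries held none, which allows up to 0.687 CPM in the shallowest PGC library by a limit of 3 counts.

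**Figure D3:**
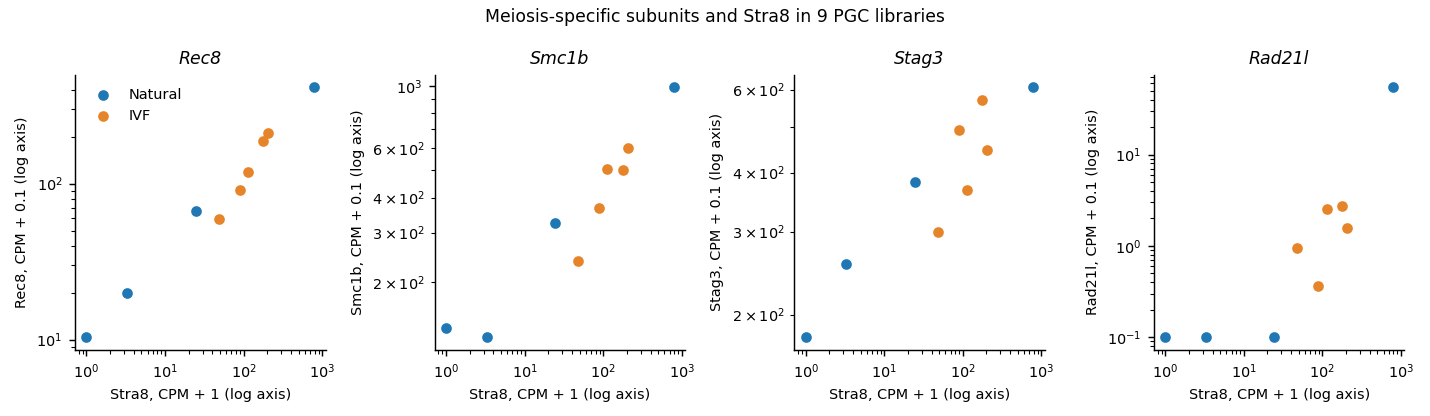
Meiosis-specific cohesin genes (y axis, CPM + 0.1, log) against Stra8 (x axis, CPM + 1, log) in the 9 E13.5 PGC libraries, with Natural in blue and IVF in orange. The 5 IVF libraries lie between 46.9 and 204 CPM of Stra8, while the 4 Natural libraries reach from 0 to 792 CPM.

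Mitotic genes were steadier in PGCs. Smc3 ranged from 442 to 607 CPM over the 9 libraries, Esco2 from 275 to 436 CPM and Stag1 from 85.0 to 149 CPM. Stag2 was low for a mitotic subunit, at 6.84 to 27.5 CPM, and per kilobase its median of 1.66 stood against 16.9 for Stag1. In the E18.5 ovaries, which also hold somatic cells, the order was the other way, with medians of 18.51 for Stag2 and 14.3 for Stag1.

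At E18.5 the IVF ovaries were compared with Natural ovaries as oocytes pass through meiotic prophase. Rad21l was higher in IVF and was the member called out of 10 tested, where 5.43% of all 16415 genes were called and 2.67% were called higher. The 4 Natural ovaries held 3.17, 2.62, 1.47 and 2.16 CPM, and the 6 IVF ovaries held from 5.58 to 9.88 CPM with a median of 7.86. The groups did not overlap, with the lowest IVF ovary above the highest Natural ovary, though overlap was not counted over all genes.

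The mean of Rad21l was 2.35 ± 0.717 CPM (SD, n = 4) in Natural and 7.69 ± 1.80 CPM (SD, n = 6) in IVF ovaries, from 16 to 39 and 57 to 100 counts per ovary. The log2 fold change was 1.66 (SE 0.28, adjusted p = 0.0129 by edgeR's quasi-likelihood test), and DESeq2 gave an adjusted p of 2.17e-06. The call held when each ovary was left out in turn, with adjusted p-values of 0.00442 to 0.0335. It was lost with the replicate number as a block (1.57, adjusted p = 0.185), a fit in which 3 genes in all were called.

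The other meiosis-specific genes were not called. Stag3 held 22.9, 51.2, 27.3 and 38.2 CPM in Natural ovaries and 33.9 to 68.8 CPM (median 55.9) in IVF ovaries (log2 fold change 0.57, SE 0.23, adjusted p = 0.152). Smc1b held 87.5, 99.5, 33.0 and 124 CPM in Natural and 56.4 to 206 CPM (median 134) in IVF ovaries (0.55, SE 0.34, adjusted p = 0.344). For both genes 4 of 6 IVF ovaries lay above the highest Natural ovary, and IVF ovaries 2 and 4 lay inside the Natural range.

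Rec8, whose protein is the kleisin that lasts into adult oocytes, pointed the other way from Rad21l without passing the test (-0.66, SE 0.42, adjusted p = 0.357). Natural ovaries held 3.90, 28.3, 18.7 and 24.9 CPM and IVF ovaries 5.29 to 20.0 CPM (median 12.0). The lowest value was that of Natural ovary 1, and without it Rec8 was called lower in IVF (-0.99, adjusted p = 0.0410) in a fit that called 1973 genes against 891.

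**Figure D4:**
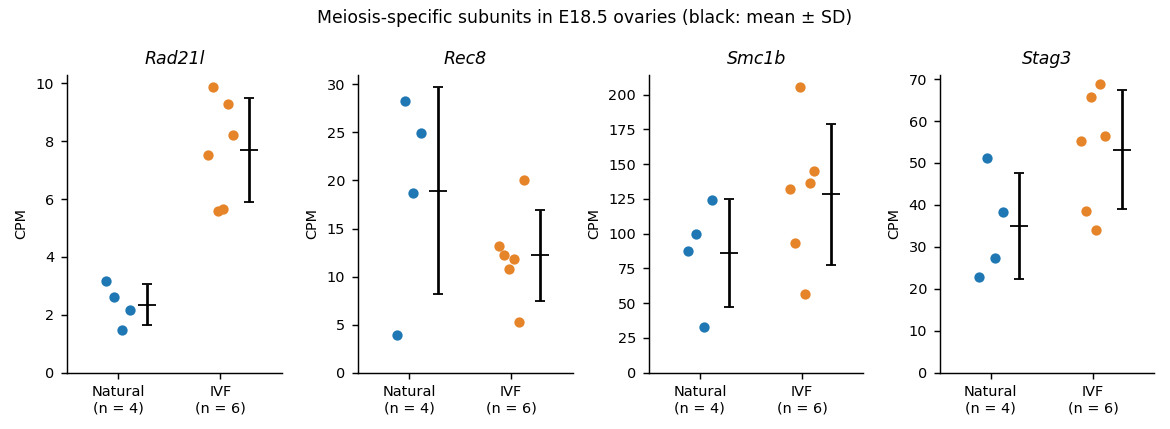
Meiosis-specific cohesin genes in E18.5 ovaries (CPM, linear axes from 0), with each point 1 library and the mean and SD in black. All 6 IVF ovaries lie above all 4 Natural ovaries for Rad21l, while the groups overlap for Rec8, Smc1b and Stag3.

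Mitotic subunits and Esco2 differed little at E18.5. Their log2 fold changes were between 0.01 (Rad21) and 0.16 (Smc1a), with adjusted p-values of 0.408 to 0.980. The median over the 10 members was 0.14, against 0.0002 over all genes tested. Of the 18 other pathway genes, 16 were tested and 1 was called, Cdca5, which encodes sororin, a protein that stabilizes cohesion (-0.68, SE 0.15, adjusted p = 0.0240). In each of the other comparisons of IVF with Natural within a table, 0 of the 16 to 18 tested pathway genes were called.

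Several marker lists moved with conception in these ovaries. Of 8 growing oocyte markers, 0 were called higher and 4 lower in IVF, and their summed level was 133 to 473 CPM in Natural and 8.30 to 125 CPM in IVF ovaries. Of 13 tested meiotic prophase markers 2 were higher and 0 lower, with sums of 183 to 398 CPM in Natural and 277 to 450 CPM in IVF ovaries. None of 4 germ cell markers was called (sums 85.1 to 231 and 165 to 313 CPM). Erythroid markers summed to 583 to 1595 CPM in Natural and 1635 to 4592 CPM in IVF ovaries, with 2 of 5 called higher. Theca or luteal markers summed to 8.38 to 13.4 CPM in Natural and 16.6 to 24.5 CPM in IVF ovaries, with 3 of 4 called higher. The growing oocyte, the erythroid and the theca or luteal sums thus separated the groups, as Rad21l did. The growing oocyte sums did so in the direction opposite to Rad21l. Of 2 tested markers of E13.5 germ cells 1 was lower in IVF, with list sums of 76.1 to 413 CPM in Natural and 12.3 to 118 CPM in IVF ovaries. Whether Rad21l moved with these was not tested, and in whole ovaries fewer cells of a type and less RNA per cell cannot be told apart.

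In adult ovaries the meiosis-specific genes were at low levels. Comparing Natural ovaries at 12 weeks with those at E18.5, 8 of 10 members were lower, where 49.7% of all 19724 genes were called and 24.3% were called lower. The largest differences were those of Smc1b (-6.58, SE 0.48, adjusted p = 3.65e-11), Stag3 (-4.63, SE 0.58, adjusted p = 3.44e-07) and Rad21l (-4.10, SE 0.79, adjusted p = 0.000113). Rad21l held 14 counts over the Natural 12-week ovaries and passed the expression filter through the fetal ovaries alone. Its direction was thus fixed in advance, and nothing is read from its call. Rec8 differed by -2.04 (SE 0.58, adjusted p = 0.00518). Its fetal Natural ovary 1 at 3.90 CPM lay inside the 12-week range, while the other meiosis-specific genes did not overlap between the ages. How many of all genes overlap was not counted, so nothing is read from this.

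Markers of several cell types differed between the same ovaries. All 4 germ cell markers were lower at 12 weeks (sums of 85.1 to 231 CPM at E18.5 and 5.39 to 9.03 CPM at 12 weeks), and so were 13 of 14 meiotic prophase markers (183 to 398 and 61.5 to 65.1 CPM). Lower as well were 7 of 8 proliferation markers and 5 of 5 stroma markers, while 4 of 4 theca or luteal markers were higher (8.38 to 13.4 and 6583 to 13139 CPM). Their part in the differences of the cohesin genes was not tested.

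Mitotic genes changed less between these ages. Esco2 was lower by -1.52 (SE 0.31), and Rad21, Stag1 and Smc3 by -0.41, -0.41 and -0.38, each with an adjusted p of 0.0173 or less. Stag2 (0.02, SE 0.13) and Smc1a (-0.21, SE 0.10) were not called. Without fetal Natural ovary 1, Rad21 (-0.21) and Smc3 (-0.26) were no longer called and Stag2 was called higher (0.27, adjusted p = 0.0298). The other pathway genes had 2 higher and 7 lower of 16 tested, and those lower included Espl1, which encodes the protease separase (-2.52), and the shugoshin gene Sgol1 (-1.64).

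IVF ovaries gave 8 lower members as well, with 59.0% of all genes called and 28.2% called lower, and the same limit holds for Rad21l. Smc1a was called there (-0.26) and Rad21 was not (-0.09). The difference between IVF and Natural in the change from E18.5 to 12 weeks was called for 0 of 10 members and for 0.314% of all genes, by edgeR, and Rad21l had the lowest unadjusted p, 0.0464 (log2 difference of changes -2.25, SE 1.08, adjusted p = 0.351).

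Within the 12-week ovaries, 0 of 9 tested members were called between IVF and Natural (0.00567% of 17628 genes called by edgeR, 2544 genes at an unadjusted p below 0.05, 656 called by DESeq2, none of them a member). Rad21l did not pass the expression filter, with 24 counts over 9 libraries. Stag1 held 62.3, 58.4, 60.4 and 58.5 CPM in Natural and 64.1, 73.3, 68.7, 68.0 and 67.2 CPM in IVF ovaries. Stag2 held 102, 101, 107 and 104 CPM in Natural and 120, 118, 121, 119 and 126 CPM in IVF ovaries.

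Neither of these genes overlapped between the groups, but overlap was not counted over all genes, so nothing is read from it. The differences were small and did not survive adjustment by edgeR's quasi-likelihood test (0.18, SE 0.06, adjusted p = 0.260 for Stag1 and 0.22, SE 0.07, adjusted p = 0.228 for Stag2). Rad21 was at 154, 155, 180 and 172 CPM in Natural and 218, 200, 233, 186 and 180 CPM in IVF ovaries (0.29, SE 0.10, adjusted p = 0.251). Oviduct markers summed to 2853 to 6878 CPM in Natural and 2.36 to 2864 CPM in IVF ovaries, and granulosa markers to 1171 to 1754 and 1549 to 3875 CPM. Their part in the Stag1 and Stag2 values was not tested.

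At 39 weeks 0 of 9 tested members were called (0.262% of 17186 genes called, 3303 at an unadjusted p below 0.05, 1229 called by DESeq2, none of them a member). The largest difference was that of Stag3, at 0.513, 0.521, 0.443, 1.32 and 3.01 CPM in Natural and 0.107, 0.490, 0.120, 0.599 and 0.173 CPM in IVF ovaries. Its log2 fold change was -1.96 (SE 0.68, adjusted p = 0.179), with overlap and with 2 to 19 counts per IVF ovary. The other 8 tested members lay between -0.30 (Smc1b) and 0.32 (Rec8).

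From 12 to 39 weeks 1 of 10 members was called in Natural ovaries, where 21.6% of all genes were called and 10.0% were called higher. Stag1 rose by 0.36 (SE 0.11, adjusted p = 0.0213), from 58.4 to 62.3 CPM to 63.6 to 85.6 CPM without overlap. The call was lost without 39-week Natural ovary 2 (0.31, adjusted p = 0.0557) and with library totals alone (0.25, adjusted p = 0.0944), where the median of all genes moved to -0.12. Oviduct markers were lower at 39 weeks, 3 of 3, with Natural sums of 2853 to 6878 CPM at 12 weeks and 1.72 to 138 CPM at 39 weeks. Of 5 erythroid markers 4 were higher, and of 3 endothelium markers 2 were higher. Their part in the rise of Stag1 was not tested. In IVF ovaries 0 of 10 members were called (6.19% of all genes), and the difference between IVF and Natural was called for 0 of 10 members against 2.71% of all genes. Of 16 other pathway genes, 5 were higher and 2 lower in Natural ovaries at 39 weeks, among them Pds5a (0.43) and the loader gene Nipbl (0.49), against 2 higher and 2 lower with library totals alone, where 6.37% of all genes were higher and 15.2% lower.

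Oocytes at 12 weeks, taken after superovulation, showed which cohesin RNAs were present at that stage. Per kilobase Esco2 was highest, with a median of 213 CPM over the 10 sets, followed by Smc3 at 47.2. Smc1a (8.70), Rad21 (7.29), Stag2 (4.57), Stag1 (3.04) and Smc1b (2.87) followed, and their ranges over sets overlapped between neighbours in this order. Rad21l (0.535), Stag3 (0.0954) and Rec8 (0 in 8 of 10 sets) were lowest. Rec8 thus had 5 counts in all among 76 oocytes, and this low RNA says nothing of the REC8 protein, which was not measured.

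Between IVF and Natural sets 0 of 9 tested members were called (0.0277% of 14444 genes called, 963 at an unadjusted p below 0.05, 46 called by DESeq2, none of them a member), and Rec8 did not pass the filter. Esco2 came closest, at 832, 650, 719, 617 and 622 CPM in the Natural sets 35_1, 35_3, 92_3, 92_4 and 92_5 and at 733, 562, 344, 505 and 441 CPM in the IVF sets 126_2, 126_3, 126_4, 127_2 and 127_3. Only IVF set 126_2 lay inside the Natural range (log2 fold change -0.54, SE 0.20, adjusted p = 0.699). Stag1 was at 11.4 to 22.6 CPM in IVF and 16.7 to 24.5 CPM in Natural sets (-0.38, SE 0.18, adjusted p = 0.768).

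Single oocytes fell into separate ranges of Gdf9. At 12 weeks 10 of 76 oocytes (4 Natural and 6 IVF) held 109 to 629 CPM of Gdf9 and the other 66 held 11063 to 25813 CPM. At 39 weeks 2 of 19 oocytes, both Natural, held 439 and 946 CPM against 12423 to 28972 CPM. The limit of 5000 CPM between them was set after the values were seen, and no test was made between the kinds.

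Smc3 split in the same way. It was at 0.200 to 49.5 CPM in the 10 oocytes with low Gdf9 and at 164 to 403 CPM in the other 66 at 12 weeks, and at 0.652 and 3.70 CPM against 116 to 272 CPM at 39 weeks, without overlap. Esco2 overlapped, at 88.1 to 808 CPM against 331 to 1258 CPM at 12 weeks, and so did Rad21, at 7.67 to 62.5 CPM against 12.4 to 77.7 CPM. Cohesin genes therefore did not all split between these oocytes.

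Other values moved with these oocytes. Total counts were 839781 to 4991194 in the 10 oocytes and 2591803 to 10879166 in the others at 12 weeks. Ooep, a gene of the maternal complex under the oocyte membrane, was at 11.6 to 241 CPM against 352 to 2489 CPM, without overlap, and Zp3, which encodes an egg coat protein, at 2.62 to 32.2 CPM against 29.1 to 236 CPM. Bmp15, another oocyte growth factor, was not low in them, with 1341 to 6867 CPM (median 6318) against 2602 to 5555 CPM (median 3760). Mki67, a proliferation gene, was at 121 to 562 CPM against 20.1 to 77.5 CPM. The 5 Rec8 counts at 12 weeks all came from 2 of these oocytes, and the other 66 held none. Without them the comparison of sets still called 0 members.

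**Figure D5:**
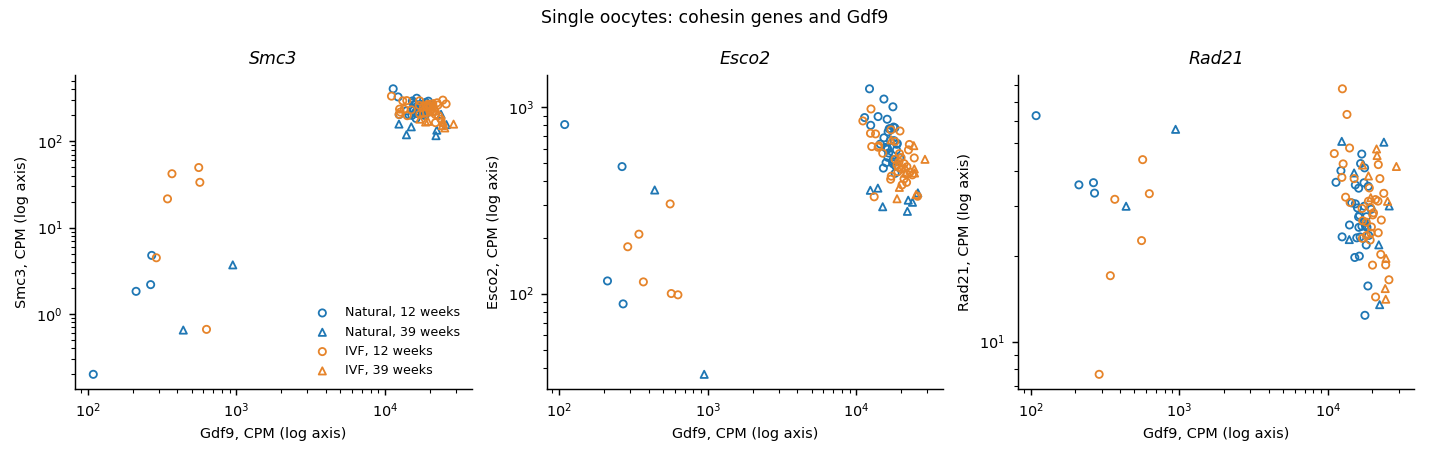
Smc3, Esco2 and Rad21 (y axes, CPM, log) against Gdf9 (x axis, CPM, log) in single oocytes, with Natural in blue, IVF in orange, circles for 12 weeks and triangles for 39 weeks. The 12 oocytes with Gdf9 below 5000 CPM hold at most 49.5 CPM of Smc3, while their Esco2 and Rad21 values overlap those of the other oocytes.

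For 39-week oocytes, summed counts were compared without a test, and exact Poisson intervals cover counting error only. Among 10 members 2 differed by 2-fold or more between IVF and Natural sums, where 48.9% of 22366 genes did. Stag3 was at 0.709 CPM in IVF (interval 0.591 to 0.844) and 2.85 CPM in Natural (2.54 to 3.19), 4.03-fold lower in IVF. Of its Natural counts, 224 came from oocyte 9 and 58 from oocyte 6, the 2 with low Gdf9, and 14 and 12 from 2 others.

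Leaving those 2 oocytes out turned the direction, with Stag3 at 0.336 CPM in Natural, from 26 counts, and 2.11-fold higher in IVF. That direction rested on IVF oocyte 1, which held 108 of the 127 IVF counts of Stag3, and without it as well Stag3 was at 0.118 CPM in IVF, from 19 counts, 2.85-fold lower than in Natural. With only the 2 Natural oocytes of low Gdf9 left out, Smc1b stood at 2.67 CPM in IVF (2.43 to 2.92) and 6.28 CPM in Natural (5.73 to 6.86). It was 2.35-fold lower in IVF, where it had been 1.73-fold lower with all oocytes. Single oocytes ranged from 0.147 to 12.4 CPM of Smc1b in IVF and from 1.53 to 13.9 CPM in the remaining Natural oocytes. In this set 39.5% of 21817 genes differed by 2-fold or more. Rec8 was found in IVF oocyte 7 alone, the shallowest of the 19, with 12 counts (4.25 CPM). With all oocytes, this put the IVF sum 2.41-fold above the Natural limit of 3 counts.

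Esco2 and Smc3 were the most abundant members again. Esco2 was at 470 CPM in IVF and 277 CPM in Natural sums, and Smc3 at 190 and 102 CPM. Without the 2 Natural oocytes of low Gdf9 the Natural sums were 321 and 141 CPM. Single oocytes ranged from 323 to 669 CPM of Esco2 in IVF and, leaving out these 2, from 277 to 369 CPM in Natural. Smc3 ranged from 142 to 272 CPM in IVF and from 116 to 204 CPM in the same 7 Natural oocytes. The ranges overlapped for both genes, and the oocytes of a group may share an animal.

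Cumulus cells served as the somatic counterpart at 12 weeks. In the joint fit of Natural samples, 8 of 8 tested members were higher in oocyte sets, where 84.8% of all 14719 genes were called and 45.3% were called higher. Rec8 and Stag3 did not pass the expression filter. Esco2, Smc1b and Rad21l held 14, 4 and 0 counts in the Natural cumulus libraries and passed it through the oocyte sets alone. Their direction was thus fixed in advance, and nothing is read from the count of 8. Some cumulus libraries share a set with oocytes, and neither set nor naming style was a term of this fit. With the paired sets of both conceptions and set as a block, all 7 members tested kept their call. Esco2 showed the widest gap, at 617 to 832 CPM in Natural oocyte sets and 0 to 1.47 CPM in Natural cumulus libraries, 694 against 0.558 CPM when summed (ratio 1243.9, counting interval 741.4 to 2275.3). Smc1b was 86.8-fold higher (33.9 to 318.4), from 4 counts in the cumulus libraries, all in 1 library. Rad21l, with no counts in the Natural cumulus libraries, was at least 5.9-fold higher by the counting interval, and 7.3-fold higher against a limit of 3 counts over the group.

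Smc3 was at 187 to 298 CPM in oocyte sets and 21.6 to 29.5 CPM in cumulus libraries (log2 difference 3.89, SE 0.21, adjusted p = 3.29e-13). Stag1, Smc1a, Rad21 and Stag2 were higher by 1.54, 1.35, 1.28 and 1.03, but with library totals alone Rad21 (0.56) and Stag2 (0.35) were no longer called and the median of all genes moved from 0.27 to -0.41. In IVF samples 8 of 8 tested members were higher after TMM as well (84.1% of genes called, 45.9% higher), with the same limit of the filter. The difference between the groups was called for 0 of 8 members and 0.0204% of genes. Other pathway genes had 14 higher and 1 lower of 17 tested after TMM, beside 45.3% of all genes higher, led by Sgol2b (12.54) and Cdca5 (6.79). With library totals alone 13 were higher and 3 lower, beside 39.0% and 45.6% of all genes.

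Within cumulus libraries 0 of 5 tested members were called between IVF and Natural (0.00973% of 10280 genes called, 625 at an unadjusted p below 0.05, 30 called by DESeq2, none of them a member). The library named 126_2_GC is labelled Natural although the oocytes of set 126_2 are labelled IVF, and the label was kept. Libraries also differed by the style of their names. Stag2 was at 27.1 to 38.2 CPM in 6 libraries named by set and 9.88 to 15.2 CPM in 4 numbered ones, and Smc1a at 20.3 to 45.6 and 10.3 to 16.4 CPM, without overlap.

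Gdf9 was at 9.78 to 22.9 CPM in the libraries named by set and at 0 to 0.972 CPM in the numbered ones, and Esco2 at 0 to 2.37 and 0 to 0.315 CPM. The naming style was a term of the fit. Granulosa markers were at 1159 to 2460 CPM in all 10 libraries.

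Over the 14 group means of log2(CPM + 1), the genes whose pattern was most like that of Rec8 among 15548 genes were Nek3 (Pearson's r = 0.989), Sapcd2 (0.986) and Lsm2 (0.985). For Smc1b they were Trim71 (0.983), LOC102634296 (0.979) and Mov10l1 (0.977). The 14 means come from 7 tables of differing protocol, and both PGC groups hold the highest Rec8 and Smc1b means, so the likeness describes these tables only.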

How the data were processed

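Counts per gene name were used as the authors deposited them, in 7 tables that cover 143 of 151 samples. The submitters' processing notes name Trimmomatic 0.32, STAR 2.3.0e, featureCounts 1.5.0, DESeq2 and mm10. The kit for ovaries marks strand, but the strand setting of the counting is not given in the sources used here, so genes overlapping on opposite strands may share reads. Germ cell and cumulus libraries were made by full-length amplification from few cells, and no molecular identifiers are described, so counting intervals (95%) and limits of 3 counts cover counting error only. Of values above 0, 69.0% (39 weeks) and 73.2% (12 weeks) were even in oocytes, against 56.5% to 58.1% in ovaries, and the cause was not tested. For ovaries, the names of 27 genes are numbers. The 4 numbered cumulus columns carry names that 2 records of 1 conception share, so each was tied to a group and not to a record. The 4 cumulus samples at 39 weeks were not analysed here. 1 Natural ovary labelled 39 weeks is also labelled 40 weeks.

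Each table was fitted with edgeR 4.0.16 in R 4.3.3 (filterByExpr, TMM, quasi-likelihood F-test, Benjamini-Hochberg adjustment over all genes tested, threshold 0.05). The cumulus model held the library naming style as a covariate. Joint fits of pairs of tables gave the comparisons across ages and cell types and the difference between IVF and Natural in each change. For 39-week oocytes, summed counts were divided, for genes with at least 10 counts in either group, with no test. Scripts were tested on simulated data with 200 changed genes. No pair of replicates agreed within sampling noise.

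Alternatives were DESeq2 1.42.0, RLE size factors, testing all genes with a count, dropping 1 sample at a time and a block for replicate numbers. Oocytes and cumulus cells were also compared in paired sets with set as a block. Further alternatives were single oocytes or summed set prefixes as samples, oocytes under 2000000 or 5000000 counts left out, no naming style, and mean, median or TMM-scaled levels at 39 weeks. Library totals only, oocytes with Gdf9 under 5000 CPM left out, leaving out each 39-week oocyte or IVF oocyte 1 with those of low Gdf9, and leaving out each library from the pooled ratios were added after seeing the data. The text names all members, the other pathway genes by count with examples past the threshold, and the 3 genes most like Rec8 and Smc1b among those with 5 CPM in a group. Members, gene lists and markers were chosen with earlier results of these data known. Start sites and promoter sequences are those of RefSeq on GRCm38.p6.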

Additional observations from a re-analysis of the deposited data

Results flagged for a closer look

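In each group of 4 to 10 samples, the highest or lowest library was compared with its nearest neighbour relative to the range of the group, by Dixon's 95% limits. Of 129 groups, 17 passed, where chance alone gives about 1 in 20. Explanations were not tested.

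In E18.5 ovaries, Smc1a stood out in IVF library 3 (217 CPM, next 172) and in Natural library 1 (160 CPM, next 146), and IVF library 2 was high in Stag1 (109 CPM, next 94.6) and Stag2 (137 CPM, next 119.5). In adult ovaries Rec8 was high in IVF library 2 at 12 weeks (7.38 CPM, next 2.61) and in IVF library 4 at 39 weeks (4.82 CPM, next 1.55), and the latter was low in Smc1b (0.504 CPM, next 0.645).

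In PGCs, Natural library 2 was high in Rec8 (415 CPM, next 67.1) and Rad21l (54.7 CPM, the others at 0), the library with the most Stra8. Among 12-week oocyte sets, IVF set 126_4 was high in Stag3 (3.02 CPM, next 0.429), and 4 oocytes of this set have Gdf9 under 5000 CPM. Among cumulus libraries, Natural 92_5_GC held 0.980 CPM of Smc1b, from 4 counts, and the other Natural ones held none.

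At 39 weeks, IVF oocyte 7, the shallowest, was high in Rec8 (4.25 CPM, the others at 0), Rad21l (2.13 CPM, next 0.770) and Smc1b (12.4 CPM, next 5.77). Both Natural oocytes with low Gdf9 were also singled out, oocyte 9 for Stag3 (12.2 CPM, next 4.72) and for low Esco2 (36.9 CPM, next 277), and oocyte 6 for Stag1 (43.2 CPM, next 22.8).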

How the results depend on the processing

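Of 4287 values of single genes recomputed under an alternative, 4226 kept their side of the threshold or stayed near the reported value, 30 called values fell short, 13 passed newly, 14 moved and 4 reversed. The sign changed in 159, these 4 included, the others being values that were not called or under 2-fold both times. The causes were not tested. With library totals only, Smc3 reversed between oocyte sets and PGCs, to -1.05 in Natural and -1.20 in IVF samples, and 0 members were called between 39-week and 12-week Natural ovaries. Without oocytes of low Gdf9, the log2 ratio of Stag3 at 39 weeks reversed to 1.08, and without IVF oocyte 1 as well it was -1.51. With single oocytes as samples, 2 members were called lower in IVF at 12 weeks, Esco2 and Stag1, where oocytes of a set are not independent. At 39 weeks 1 member differed by 2-fold or more by the median of the oocytes, and 1 when oocytes under 5000000 counts were left out.

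When each sample was left out in turn, the number of members called at E18.5 was 1 to 2 (2 without Natural ovary 1), and between 39-week and 12-week Natural ovaries 0 to 2 (0 without 39-week Natural ovary 2, and 2 without E18.5 Natural ovary 1, whose spread enters the joint fit, or without 12-week Natural ovary 2). For 39-week oocytes 1 to 4 members differed by 2-fold or more (4 without Natural oocyte 4, 1 without IVF oocyte 7 or Natural oocyte 9). Rad21l in Natural oocyte sets against PGCs lay between -2.28 and 7.84, the latter without Natural PGC library 2. The pooled ratio of Rec8 between Natural PGCs and oocyte sets lay between 2248.2 (without PGC library 2) and 14990.8.

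Replicate numbers were checked for pairing. Deviations of same-numbered libraries had correlations of -0.131 to 0.011 at E18.5 and -0.357 to 0.251 at 12 weeks, without a common positive direction. The correlations were 0.4, 0.212, -0.006, 0.066 and 0.204 at 39 weeks, and 0.283, 0.53, -0.063 and 0.338 in PGCs. Most of these were positive, so pairing by number is not settled for 39-week ovaries and PGCs. With the replicate number as a block, 0 members and 3 genes were called at E18.5 against 1 and 891, and 0 members in adult ovaries and PGCs as without it.

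Over all genes, edgeR and DESeq2 called 891 and 1924 at E18.5, 1 and 656 in 12-week ovaries, 45 and 1229 in 39-week ovaries, 4 and 46 in oocyte sets and 1 and 30 in cumulus cells. Depth limits Rec8, Stag3 and Rad21l in oocytes and cumulus cells, where a library's limit of 3 counts is 0.0964 to 3.57 CPM.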
